A study of Mus musculus with 7 samples.

Results

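Skipping of several exons together was examined in cultured mouse neural progenitors, derived from embryonic stem cells, after 1 day with an insecticide or in control culture. The events are those in which a run of 2 or more neighbouring exons is either kept in the transcript or left out as a block. They were all the distinct events of this kind listed in any library, including an approximate kind. In the approximate kind, the ends of the flanking exons that face the run can differ between the 2 forms. There were 9667 such events among 126309 events of all kinds, against 33801 events of single skipped exons and 16478 of retained introns. Of the 9667, 5944 were forms with the run kept and 3723 were forms with the run skipped. Both forms were listed for 4464 runs in 1924 genes. A further 1480 kept forms had no skipped form listed, and 861 skipped forms had no kept form listed.

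The 7 libraries, 1 for each group, came from wild-type cells of the B6G-2 embryonic stem cell line. One library each was exposed to chlorpyrifos, DDT, rotenone, carbaryl, deltamethrin and imidacloprid, and 1 was the control. The cells had passed through embryoid bodies for 6 days and were progenitors at day 14, when the medium was changed to one for differentiation. The study asked how insecticides harm the developing nervous system, and the labels used here give neither a dose nor a vehicle. The labels call the tissue brain, although the cells were grown in culture from a stem cell line. With 1 library for each group there is no replicate, so every difference below compares libraries and none has a test, an error or a p-value.

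Transcripts are assembled from exons by the spliceosome, which can pass over an exon or over several in a row. When a coding run has a length that is a multiple of 3, transcripts with and without it share the reading frame on both sides. Otherwise the frame shifts, and such transcripts often meet an early stop codon and are degraded by nonsense-mediated decay. Neural cells are known for frequent use of short skipped exons in genes of the cytoskeleton and of cell adhesion.

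The following runs show what is gained or lost in a few such genes, which were picked by hand. For each gene the wholly coding run of 2 exons at the highest level is shown, and for Clasp2 another one as well. All have a length that is a multiple of 3. They are written 5′ to 3′ on the transcript strand from GENCODE M21 transcripts on build GRCm38, with the first exon in lower case and the second exon in capitals. App, the amyloid precursor protein, carries the run at chr16:85040251-85043743 on the minus strand, with exons of 168 and 57 nt. Ncam1, a neural cell adhesion molecule, carries one of the shortest length among all paired runs at chr9:49531974-49541902 on the minus strand, with exons of 15 and 3 nt. Clasp2, which stabilises the growing ends of microtubules, carries one at chr9:113858581-113860137 and another at chr9:113862436-113865112, both on the plus strand. Epb41, which joins spectrin and actin to the membrane, carries one at chr4:131962924-131963970 on the minus strand. Nlgn3, a postsynaptic adhesion molecule that was chosen after its values were seen, carries one of 2 exons of 60 nt at chrX:101303072-101307134 on the plus strand. Map4, a microtubule-binding protein related to tau, carries one at chr9:110071026-110072705 on the plus strand.
App, 225 nt: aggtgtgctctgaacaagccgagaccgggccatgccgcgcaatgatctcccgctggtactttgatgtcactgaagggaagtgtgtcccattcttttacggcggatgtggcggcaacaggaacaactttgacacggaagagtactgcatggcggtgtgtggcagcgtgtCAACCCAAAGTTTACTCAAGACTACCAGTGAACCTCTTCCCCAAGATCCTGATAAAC
Ncam1, 18 nt: atagccctcctccacAAG
Clasp2, 42 nt: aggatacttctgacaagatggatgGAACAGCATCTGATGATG
Clasp2, 54 nt: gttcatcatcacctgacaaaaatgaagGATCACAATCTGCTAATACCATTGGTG
Epb41, 105 nt: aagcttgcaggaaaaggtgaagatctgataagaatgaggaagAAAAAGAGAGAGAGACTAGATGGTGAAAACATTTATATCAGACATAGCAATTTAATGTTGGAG
Nlgn3, 120 nt: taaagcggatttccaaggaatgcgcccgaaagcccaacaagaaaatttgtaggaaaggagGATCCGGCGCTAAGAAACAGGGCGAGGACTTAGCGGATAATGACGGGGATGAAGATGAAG
Map4, 207 nt: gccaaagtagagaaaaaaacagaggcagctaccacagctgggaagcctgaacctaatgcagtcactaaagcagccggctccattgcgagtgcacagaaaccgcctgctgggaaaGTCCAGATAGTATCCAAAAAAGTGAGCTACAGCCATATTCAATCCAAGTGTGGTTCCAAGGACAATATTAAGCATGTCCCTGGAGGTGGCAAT

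The level of a form is given in FPKM, the fragments of a transcript relative to its length and to the depth of the library, as the authors deposited it. The inclusion share of a run is the FPKM of the kept form as a percentage of the summed FPKM of both forms in 1 library. A form that was not listed in a library counted as 0 there where the other form was listed. Shares are described for the 1781 runs, in 1122 genes, whose summed FPKM averaged at least 5 over the 7 libraries. The files hold no read counts, so the depth is unknown and no interval can be given. The events listed for several exons ranged from 6298 to 6402 among the libraries. Of the 9667 events, 4215 (43.6%) were listed in all 7 libraries and 2129 in 1 library only.

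Marker genes were read from the start events of their transcripts. The progenitor genes Nes, at 165 to 206 FPKM, and Vim, at 995 to 1233 FPKM, were listed in every library, as were the neuronal genes Map2, at 132 to 157 FPKM, and Dcx, at 22.8 to 27.2 FPKM. Of the 6 markers of each of these 2 cell types, Sox2 and Tubb3 had no such event. The glial genes Slc1a3, at 54.3 to 95.5 FPKM, and Fabp7, at 66.2 to 2620.2 FPKM, were also listed in every library, while Gfap did not pass 0.678 FPKM. Of the 7 glial markers, 4 had a median of at least 1 FPKM, and Aqp4 and S100b had a median of 0. Of the 5 oligodendrocyte-lineage markers, 3 had a median of at least 1 FPKM, while Olig2 and Sox10 were not listed. None of the 3 stem cell markers had a median of 1 FPKM. All 4 mesenchymal markers had medians of at least 1 FPKM, from 2.46 FPKM for Postn to 9.96 FPKM for Col3a1, and none of the 3 microglial markers was listed in any library. In a bulk library, a change in the mix of cells and a change of splicing within cells cannot be told apart from a share.

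Most runs were short, and most were kept. Among all 4464 paired runs, 64.8% had 2 exons, the longest had 42 exons, and the summed length of the run ranged from 18 to 8245 nt with a median of 279 nt. Of the 1781 runs described by share, 1190 (66.8%) had 2 exons, 294 had 3 and 183 had 5 or more. A total of 1263 runs (70.9%) were mostly included, with a median share over the libraries of 90% or more. Another 274 runs (15.4%) were mostly skipped, with a median of 10% or less, and 244 (13.7%) were mixed. Single skipped exons at the same level were mostly included in 48.1% of 7862 pairs and mixed in 22.3%, so runs of several exons stood more often at one end of the scale. Retained introns lay at the other end, with 77.5% of 2618 mostly skipped.

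The length of a run went with how often it was kept. Of the runs whose exons are wholly coding in an annotated transcript, 77 of 91 mostly skipped ones (84.6%) had a length that is a multiple of 3. The same held for 118 of 166 mixed runs (71.1%) and for 478 of 978 mostly included runs (48.9%). With 1 run per gene, the counts were 39 of 42 mostly skipped, 73 of 106 mixed and 339 of 694 mostly included runs. Single skipped exons had the same order, at 78.2%, 72.2% and 44.3%. These are descriptions of the runs and not tests, since runs of a gene can share transcripts. Approximate events are counted among them, and where their flanking ends differ, the length alone does not set the reading frame. Of the 798 approximate paired runs, 76 had the same flanks in both forms.

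**Figure D1:**
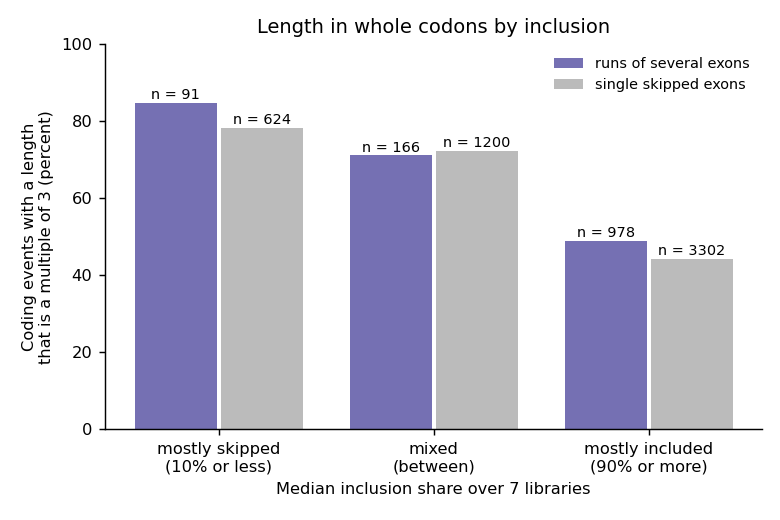
Percent of wholly coding events whose length is a multiple of 3, for runs of several exons (purple) and single skipped exons (grey), by the class of their median inclusion share over the 7 libraries. The number of coding events stands above each bar, and the bars of both kinds become lower from mostly skipped to mostly included.

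The annotation describes the transcripts that join the exons on both sides of the run. Runs were sorted so that a junction carried by any protein-coding transcript counted as protein coding, even where a transcript annotated for nonsense-mediated decay also carried it. Of mostly included runs with an annotated skipping junction, 188 of 965 (19.5%) had it in a decay transcript and in no protein-coding one. The same was so for 18 of 217 mixed runs (8.29%) and for 6 of 258 mostly skipped runs (2.33%). Only other kinds of transcript carried the junction for 204 of 965 mostly included runs (21.1%). They did so for 16 of 217 mixed runs (7.37%) and 14 of 258 mostly skipped runs (5.43%). Of the 171 coding, mostly included runs with a junction annotated for decay, 17 (9.94%) had a length that is a multiple of 3. The count was 330 of 466 (70.8%) where a protein-coding transcript carries the junction. An early stop codon, as a frame shift can bring, is what marks a transcript for decay, so this contrast is partly built into the annotation.

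Long runs were seen mainly with the run kept. Of the 183 runs of 5 or more exons described by share, 144 were mostly included, 20 mostly skipped and 19 mixed. Those with the most exons, with 1 run per gene, were as follows. Nup205, a structural protein of the nuclear pore, had a run of 35 exons and 4832 nt whose kept form was at 20.5 to 23.9 FPKM in every library. Its skipped form was listed with imidacloprid alone, at 0.306 FPKM. Kif1a, a motor that carries synaptic vesicle precursors along axons, had a run of 28 exons with shares of 98.4% to 99.4% in the exposed libraries and 98.7% in control. Eif3a, a subunit of translation initiation factor 3, had a run of 17 exons whose lowest share among the 7 libraries was 99.8%. Col4a1, a basement membrane collagen, had a run of 18 exons with shares of 81.2% with DDT, 96.6% to 100% with the other insecticides and 98.2% in control. Wwp1, a ubiquitin ligase, had a run of 21 exons whose skipped form was listed in control alone, with a share of 87.9% there. Tnrc6a, a partner of Argonaute proteins, had a run of 20 exons whose kept form was at 3.84 to 9.62 FPKM with the other 5 insecticides and 7.24 FPKM in control and was not listed with imidacloprid. Its skipped form stayed at or under 0.00523 FPKM in every library, so with imidacloprid neither form had a level to speak of.

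The runs at the highest level also stood at the kept end. Hspa8, a constitutive chaperone, had a 3-exon run whose kept form was at 907 to 1926 FPKM in the exposed libraries and 1919 FPKM in control, with shares of 98.6% to 99.9% in all 7. Hsp90ab1, another chaperone, had shares of 93.0% to 97.1% with insecticides and 91.9% in control, and its skipped form differed little, at 28.3 to 38.3 FPKM with insecticides and 38.8 FPKM in control. Its kept form was at 418 FPKM with carbaryl and 439 FPKM in control, below the 846 to 1085 FPKM of the other 5 libraries. The ribosomal protein genes Rpl3 and Rpl13a had shares of 99.4% or more in every library. Atp5a1, a subunit of the mitochondrial ATP synthase, had a 7-exon run whose skipping junction is annotated for nonsense-mediated decay. Its skipped form was at 10.9 to 32.9 FPKM with insecticides and 24.5 FPKM in control, for shares of 92.2% to 97.4% and 94.1%.

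Runs in genes of the neural cytoskeleton and of cell adhesion were looked at as a group. Of a list of 34 such genes, chosen because skipping of several exons is known in them, 22 had a paired run and 16 had at least 1 run at the level described, with 37 runs in all. Of these 37, 14 were mostly skipped, 18 mixed and 5 mostly included, with a median of 25.4% over the runs' median shares, against 99.8% over all 1781 runs. A total of 35 of the 37 had a length that is a multiple of 3 (94.6%), against 905 of 1781 (50.8%). The share spanned 20 points or more over the libraries in 22 of the 37 (59.5%), against 554 of 1781 (31.1%). Several of these runs overlap, and with 1 run per gene 8 of 16 were mostly skipped, 6 mixed and 2 mostly included. Since the genes were listed for known skipping, these counts describe the list and are no evidence that such genes differ from others.

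**Figure D2:**
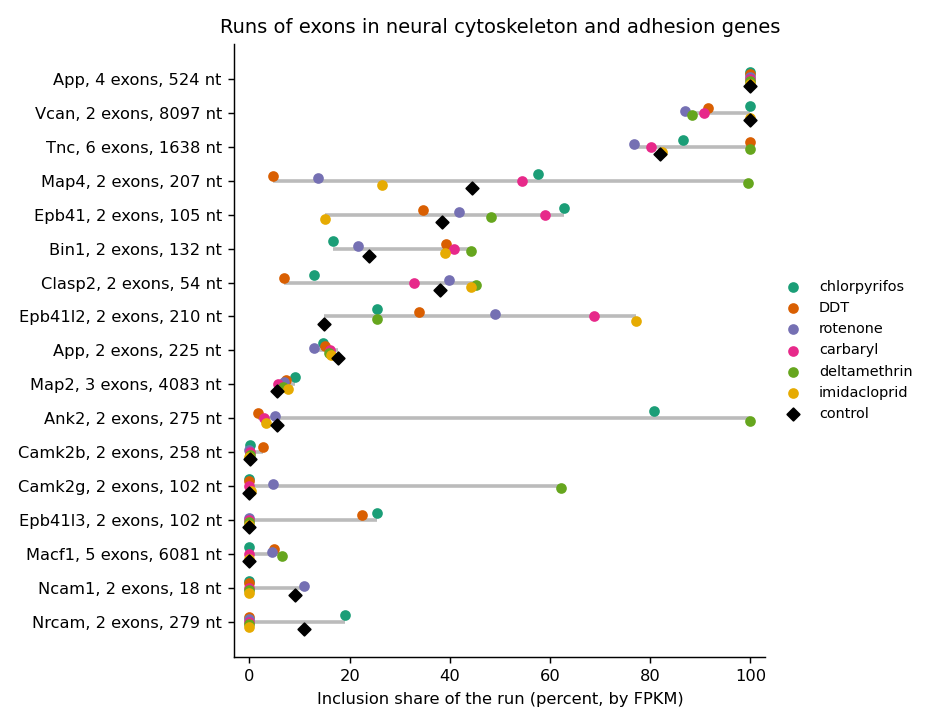
Inclusion share (percent, by FPKM) of runs in neural cytoskeleton and adhesion genes, 1 row for the run of each gene with the highest level and a second row for App, ordered by median share. Each point is 1 library, circles for the 6 insecticides and a black diamond for control, and a grey line joins the lowest and the highest. App, Map2, Camk2b and Macf1 have narrow rows, while Map4 and Ank2 span nearly the whole axis.

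Several of these runs had nearly the same share in every library. Map2, which stabilises microtubules in dendrites and has a juvenile form that lacks its large central exons, had a run of 3 exons and 4083 nt. Its share was 9.07% with chlorpyrifos, 7.27% with DDT, 6.98% with rotenone, 5.78% with carbaryl, 6.75% with deltamethrin, 7.77% with imidacloprid and 5.42% in control. The skipped form was at 98.3 to 129 FPKM with insecticides and 126 FPKM in control, and the kept form at 7.77 to 10.1 FPKM and 7.22 FPKM. All 6 exposed libraries stood above control in share, by 3.65 points at most, less than the median range of 9.67 points over all runs.

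The App run printed above holds the exon of the Kunitz protease inhibitor domain, and the form that lacks it is the one known from neurons. Its share was 14.8% with chlorpyrifos, 15.0% with DDT, 12.9% with rotenone, 16.1% with carbaryl, 15.9% with deltamethrin, 16.2% with imidacloprid and 17.7% in control. Control was the highest of the 7, and the whole range was 4.82 points. The skipped form was at 40.4 to 49.9 FPKM with insecticides and 39.0 FPKM in control. A second App run of 4 exons and 524 nt was kept almost wholly, at 64.3 to 70.1 FPKM with insecticides and 63.3 FPKM in control.

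Other runs were mostly skipped, with median shares of 10% or less. The 18-nt Ncam1 run was kept at 2.21 FPKM with rotenone and 2.14 FPKM in control, for shares of 10.8% and 9.13%, and its kept form was not listed in the other 5 libraries, where the skipped form was at 20.2 to 25.0 FPKM. Camk2b, a subunit of a calcium-dependent kinase of synapses, had a 258-nt run with a share of 2.64% with DDT and at most 0.123% in the other libraries. Macf1, which crosslinks actin and microtubules, had a run of 5 exons and 6081 nt that reached 6.54% with deltamethrin and was not listed as kept with chlorpyrifos, carbaryl or imidacloprid or in control. Nrcam, an adhesion molecule of axons, had a 279-nt run at 19.1% with chlorpyrifos, 10.8% in control and 0 elsewhere. The skipping junction of this Nrcam run is not in the annotation. Another Nrcam entry of 279 nt at the same start and end had a mean sum of 4.89 FPKM. It was kept with other libraries, at 21.1% with carbaryl and 15.0% with imidacloprid, and was at 0 elsewhere, control included. Epb41l3, a membrane skeleton protein, had a 102-nt run at 25.5% with chlorpyrifos and 22.5% with DDT, and its kept form was not listed in the other 5 libraries, control included.

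Vcan and Tnc encode proteins of the matrix between cells. Vcan, a proteoglycan of the brain matrix, had a run of its 2 long glycosaminoglycan attachment exons, 2880 and 5217 nt. Its share was 100% with chlorpyrifos and imidacloprid and in control, and 87.0% to 91.5% with the other 4 insecticides. Tnc, a matrix protein of progenitor zones, had a run of 6 exons that are all 273 nt long, in the region of its alternatively used fibronectin type III repeats. The share of that run was 86.5% with chlorpyrifos, 100% with DDT, 76.8% with rotenone, 80.2% with carbaryl, 100% with deltamethrin, 82.3% with imidacloprid and 81.9% in control. The skipped form of the 6 exons was at 5.81 to 8.08 FPKM where listed, and it was not listed with DDT or deltamethrin. A run of 5 of these exons within it had a skipped form listed with rotenone, at 4.58 FPKM, with deltamethrin, at 3.99 FPKM, and in control, at 6.20 FPKM. A second 5-exon run, at the same ends as the 6 exons, was lower, at 25.3% with rotenone, 39.8% to 56.7% with chlorpyrifos, carbaryl and imidacloprid and 100% with DDT and deltamethrin, against 45.8% in control. A 4-exon run had shares of 37.4% with rotenone, 64.5% with deltamethrin and 100% with the other 4 insecticides, against 48.8% in control.

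Map4, at a mean of 87.3 FPKM over both forms, had shares that spanned 94.7 points. The kept form was at 52.1 FPKM with chlorpyrifos, 4.47 FPKM with DDT, 14.6 FPKM with rotenone, 48.1 FPKM with carbaryl, 68.9 FPKM with deltamethrin, 22.4 FPKM with imidacloprid and 34.5 FPKM in control. Its skipped form was at 38.3, 89.0, 92.6, 40.2, 0.333 and 62.5 FPKM in the same 6 exposed libraries, in that order, and at 43.2 FPKM in control. The shares were 57.7%, 4.78%, 13.7%, 54.4%, 99.5% and 26.4% with the insecticides and 44.4% in control. DDT and deltamethrin thus stood at opposite ends, with control between them.

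The runs of Clasp2, Epb41 and Nlgn3 printed above were mixed. The 54-nt Clasp2 run had shares of 12.9% with chlorpyrifos, 6.89% with DDT, 39.9% with rotenone, 32.9% with carbaryl, 45.2% with deltamethrin, 44.2% with imidacloprid and 38.1% in control, so that chlorpyrifos and DDT were low and the other 5 libraries lay close together. The 42-nt run of the same gene ordered the libraries in another way, at 58.8% with deltamethrin, 4.71% with imidacloprid and 17.6% to 39.6% in the other exposed libraries, against 18.8% in control. The Epb41 run had shares of 62.8% with chlorpyrifos, 34.7% with DDT, 41.8% with rotenone, 59.0% with carbaryl, 48.1% with deltamethrin, 15.0% with imidacloprid and 38.5% in control. A 3-exon Epb41 run of 162 nt had the same values in every library. The Nlgn3 run had shares of 73.0% with chlorpyrifos, 99.8% with DDT, 85.8% with rotenone, 11.3% with carbaryl, 0 with deltamethrin, 74.8% with imidacloprid and 73.7% in control. Its kept form was at 6.68 to 8.15 FPKM in 5 libraries, control among them, and at 0.328 FPKM with carbaryl.

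Epb41l2, a relative of Epb41, had a 210-nt run at 25.5% with chlorpyrifos, 33.7% with DDT, 49.1% with rotenone, 68.7% with carbaryl, 25.4% with deltamethrin and 77.2% with imidacloprid, against 15.0% in control. Control was the lowest of the 7 for this run. The kept form was at 14.4 FPKM with carbaryl and 11.5 FPKM with rotenone, against 3.32 FPKM in control. With imidacloprid alone it was below control, at 2.80 FPKM. The high share there came with a skipped form of 0.827 FPKM, against 18.9 FPKM in control. Another Epb41l2 run, with the same ends and another exon after it, ordered the libraries differently, with shares of 0 with DDT and 27.1% to 90.1% with the other 5 insecticides, against 52.2% in control. Bin1, which bends membranes, had 8 runs at the level described that overlap one another. Its highest, of 132 nt, had shares of 16.7% to 44.3% with insecticides and 23.8% in control. Ank2, a membrane anchor of axons, had a 275-nt run with shares of 80.8% with chlorpyrifos and 100% with deltamethrin, 1.69% to 5.07% with the other 4 insecticides and 5.50% in control. The kept form was low throughout, at 0.323 to 0.792 FPKM with insecticides and 1.55 FPKM in control. The high shares came with a skipped form of 0.0767 FPKM with chlorpyrifos and no listed skipped form with deltamethrin, against 13.4 to 26.0 FPKM with the other 4 insecticides and 26.7 FPKM in control.

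Among 30 splicing regulators, 10 had 1 run each at the level described, of which 6 were mostly included, 3 mostly skipped and 1 mixed. Rbfox2, which promotes or blocks neural exons depending on where it binds, and Ptbp2, a neural repressor of exons, kept their 3-exon runs in every library, Rbfox2 at 25.0 to 34.3 FPKM with insecticides and 32.3 FPKM in control. The lowest shares among the 7 libraries were 99.3% for Hnrnpa2b1 and 99.5% for Hnrnpd. Celf1, Hnrnpc and Srsf11 had runs whose share did not pass 2.58%. Hnrnpa1, an RNA-binding protein that often represses exons, had a 315-nt coding run with shares of 91.8% with chlorpyrifos, 94.4% with DDT, 91.5% with rotenone, 62.4% with carbaryl, 20.7% with deltamethrin, 93.2% with imidacloprid and 71.7% in control. Mbnl1, which regulates exons during development, had a 131-nt run at 63.6% with DDT and 64.6% in control and at 87.5% to 100% in the other 5 libraries. These 2 were the members with a range of 20 points or more, 2 of 10, against 31.1% of all runs.

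Set against the control library, each insecticide had about as many runs with another share as any pair of exposed libraries had. With chlorpyrifos, 208 of 1768 runs (11.8%) differed from control by 20 points or more, 115 higher and 93 lower, where 11.8% of all pairs of every kind did so, 5.92% higher and 5.85% lower. With DDT, 201 of 1766 runs (11.4%) did, 108 higher and 93 lower, where 11.9% of all pairs did, 5.9% higher and 5.95% lower. With rotenone, 186 of 1764 runs (10.5%) did, 113 higher and 73 lower, where 11.6% of all pairs did, 6.07% higher and 5.57% lower. Rotenone had the fewest runs that were lower than control.

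With carbaryl, 185 of 1769 runs (10.5%) differed from control, 107 higher and 78 lower, where 11.8% of all pairs did, 5.87% higher and 5.97% lower. With deltamethrin, 205 of 1770 runs (11.6%) did, 116 higher and 89 lower, where 12.2% of all pairs did, 6.3% higher and 5.85% lower. With imidacloprid, 199 of 1767 runs (11.3%) did, 104 higher and 95 lower, where 12% of all pairs did, 5.93% higher and 6.05% lower. All 6 comparisons share the 1 control library, so a library that stands high or low there enters each of them.

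**Figure D3:**
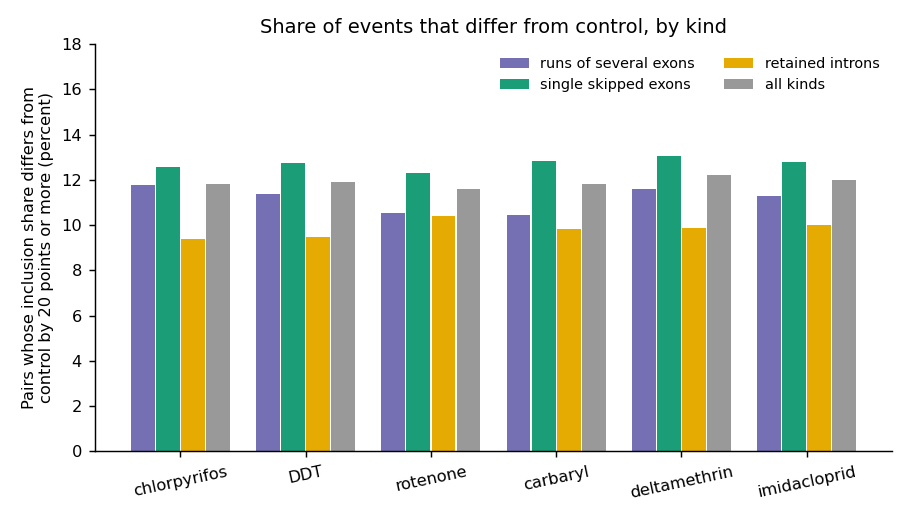
Percent of pairs whose inclusion share differed from control by 20 points or more with each insecticide, for runs of several exons, single skipped exons, retained introns and all kinds. Runs of several exons lie between 10.5% and 11.8%, below single skipped exons in each comparison.

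Among the 15 pairs of exposed libraries, 178 to 216 runs differed by 20 points or more, with a median of 198, where the median for all kinds was 11.6% of pairs. The 6 comparisons with control gave 185 to 208, with a median of 200, so they lay inside the range of the exposed pairs. The mean share over the runs was 77.3% to 78.4% in the exposed libraries and 77.2% in control. Between 69.5% and 71.9% of runs lay within 5 points of control in each comparison. Mixed runs made up 76 to 85 of the runs that differed in each comparison, out of 238 or 239 with a value. Mostly included runs made up 76 to 88, out of 1252 to 1258, and mostly skipped runs 29 to 41, out of 272 to 274. The classes were set on the median share over these same libraries, so a run that varies widely can be mixed for that reason.

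In each comparison, part of the runs that differed also had another total. With a summed FPKM within 1.5 times of that in control, 100 runs differed with chlorpyrifos, 103 with DDT, 92 with rotenone, 90 with carbaryl, 101 with deltamethrin and 92 with imidacloprid, or 6.80% to 8.02% of the runs so limited. The rest differed in a library where the sum of both forms had also moved, as for Ank2 above. No share over all kinds is given at this limit, so whether the drop is particular to runs was not tested. Shares spanned 20 points or more in 35.3% of runs at 5 to 20 FPKM, in 22.1% at 20 to 50 FPKM and in 15.4% at 50 FPKM or more.

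Each library also had runs whose share stood at least 20 points outside the range of the 6 others. Among the 1756 runs with a value in all 7 libraries these were 35 with chlorpyrifos, 36 with DDT, 21 with rotenone, 33 with carbaryl, 33 with deltamethrin and 34 with imidacloprid, against 34 in control. The same was true of 1.82%, 1.63%, 1.56%, 1.95%, 1.8% and 1.68% of all pairs with the 6 insecticides in that order and 1.95% in control, where the shares of runs were 1.20% to 2.05%. Control stood apart about as often as an exposed library did.

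Sirt2, a deacetylase that acts on tubulin, had a run for which the control library stood apart from all others. Its 163-nt run had shares of 76.8% with chlorpyrifos, 97.0% with DDT, 87.0% with rotenone, 80.6% with carbaryl, 93.9% with deltamethrin and 96.5% with imidacloprid, against 0.287% in control. The kept form was at 10.9 to 18.2 FPKM with insecticides and 0.0555 FPKM in control, and the skipped form at 0.342 to 5.48 FPKM and 19.3 FPKM. The exposed libraries and control did not overlap in either form, and 1 control library cannot show whether other control cultures would do the same.

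Rbm6, an RNA-binding protein, had a 4-exon run that was low in control, at 14.6%, and with deltamethrin, at 49.3%, and at 99.9% or more with the other 5 insecticides. Mtss1, a regulator of actin at membranes, had a 315-nt run at 96.3% with chlorpyrifos, 97.9% with imidacloprid and 6.13% in control. As for Ank2, its skipped form was nearly absent in the high libraries, at 0.0261 and 0.0308 FPKM, against 21.6 FPKM in control, while the kept form was at 0.681 and 1.45 FPKM, against 1.41 FPKM. Mia2, which works in export from the endoplasmic reticulum, had a 99-nt run at 88.3% with carbaryl and 82.6% with chlorpyrifos and at most 24.2% elsewhere, with 2.49% in control. For Mia2 the kept form was at 9.39 FPKM with carbaryl, against 0.123 FPKM in control. Entr1, an endosomal protein, had a 219-nt run at 54.9% with chlorpyrifos, 99.9% with DDT and 32.0% with carbaryl, against 0.0995% in control. With DDT both Entr1 forms were low, at 0.393 FPKM kept and 0.000578 FPKM skipped.

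Among the 3 lowest runs against control for each insecticide, a 68-nt run of Ewsr1, an RNA-binding protein of the FET family, had the highest level. Its kept form was at 3.15 FPKM with chlorpyrifos, 56.3 FPKM with DDT, 22.6 FPKM with rotenone, 60.5 FPKM with carbaryl, 51.3 FPKM with deltamethrin, 56.5 FPKM with imidacloprid and 75.2 FPKM in control. The skipped form was at 78.1 FPKM with chlorpyrifos and 42.3 FPKM with rotenone, and at most 2.85 FPKM in the other 5 libraries. Chlorpyrifos, at a share of 3.88%, and rotenone, at 34.8%, thus stood below the rest, which were at 94.7% or more.

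Lars, the leucine tRNA ligase of the cytosol, had a 3-exon run at 11.5% with DDT and at least 99.2% in each other library. Its kept form was at 3.82 FPKM with DDT and 24.6 to 26.0 FPKM with the other insecticides, against 25.6 FPKM in control. Ttc3, a ubiquitin ligase, had a 9-exon run that was not listed as kept with rotenone and had a share of 65.0% in control. Efs, an adaptor of Src kinases, had a 193-nt run at 17.8% with carbaryl, 19.6% with deltamethrin and 29.0% with chlorpyrifos, against 94.9% to 95.4% with the other 3 insecticides and 100% in control. Pum2, a repressor of translation, had a 199-nt run whose kept form was not listed with DDT, carbaryl or imidacloprid, and a share of 70.4% in control. Phf3 and Luc7l, which act in transcription and in splice site choice, had shares of 19.8% and 27.8% with imidacloprid and of 100% in control.

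**Figure D4:**
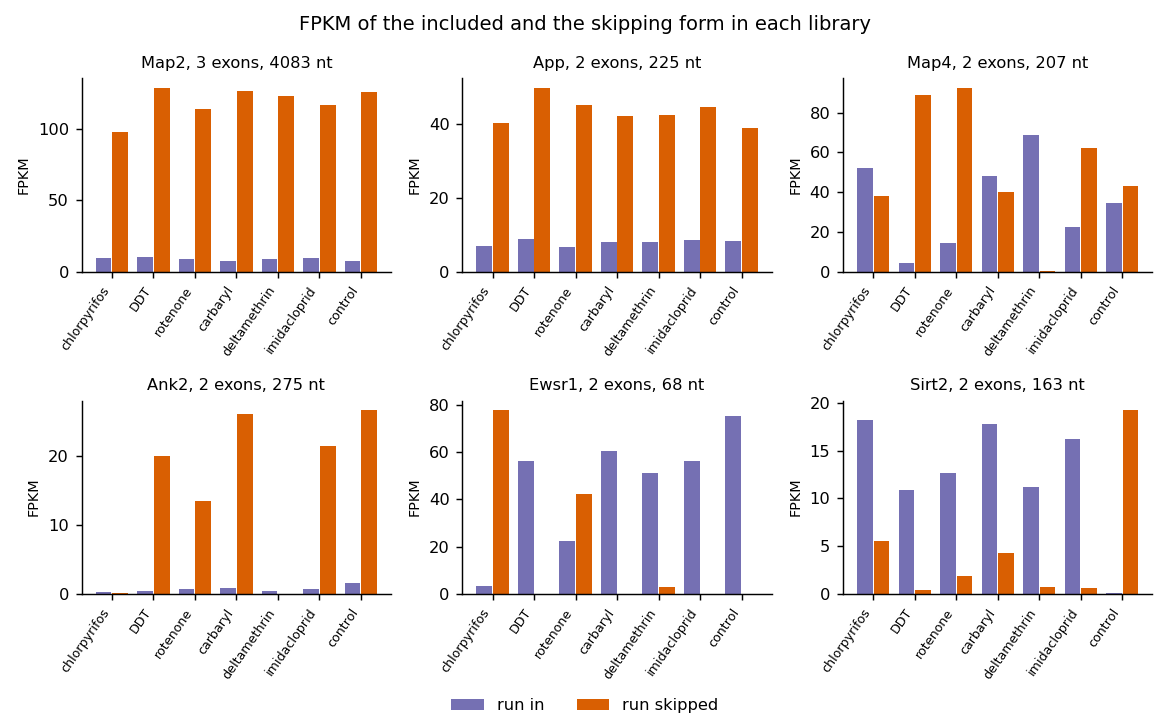
FPKM of the form with the run kept (purple) and of the form with the run skipped (orange) in each of the 7 libraries, exposed ones first and control last, for 6 runs. Map2 and App show the same balance in every library, Map4 and Ewsr1 change sides between libraries, Ank2 loses its skipped form with chlorpyrifos and deltamethrin, and Sirt2 has its skipped form ahead in control alone.

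The widest ranges of all came from runs in which one form was not listed in some library and was counted as 0 there. Matr3, a nuclear matrix protein, had a run of 2 exons and 1155 nt, not wholly coding, whose kept form was at 24.6 to 60.0 FPKM with the other 5 insecticides and 27.0 FPKM in control. With carbaryl it was not listed and the skipped form, listed nowhere else, was at 38.2 FPKM. Ice1, a subunit of a transcription elongation complex, had a 113-nt run kept at 10.4 to 12.3 FPKM with 4 insecticides and 11.0 FPKM in control, and skipped at 11.8 FPKM with deltamethrin. Neither Ice1 form was listed with imidacloprid. A form missing from a library's list can be a failed estimate, so it is given as not listed and not as absent.

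Other runs with a range near the whole scale had a sum that moved as well. Atp5j, a coupling subunit of the ATP synthase, had a skipped form at 64.8 FPKM with imidacloprid and 42.8 FPKM in control that was not listed with the other 5 insecticides, where the kept form was at 0.0121 to 5.41 FPKM. Actb, cytoplasmic actin, had a run whose kept form was not listed with chlorpyrifos or DDT and was at 7.78 to 16.1 FPKM with the other insecticides and 8.52 FPKM in control. Tmem176b, a membrane protein, had a kept form at 9.06 FPKM with carbaryl, 9.82 FPKM with imidacloprid and 29.0 FPKM in control, and none listed with the other 4 insecticides. Further runs of this group lie at Nudt3, Pou3f3 and Fam49b, and their skipping junctions are not in the annotation. It was also so for the runs named above of Ice1, Luc7l, Wwp1 and Tnc, and for the 42-nt Clasp2 run. The Epb41l2 run with another exon after it had no annotated skipping junction either.

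Of all 244 mixed runs, 3 had a range under 5 points, the App run printed above among them. Mixed runs with a median of 20% to 80%, 1 per gene, were ranked by range, and those with the smallest ranges still moved by several points. Naa35, a subunit of an N-terminal acetyltransferase, had an 8-exon run with shares of 77.4% to 81.3% with insecticides and 83.2% in control. Its range, 5.83 points, was the smallest of the runs so ranked. Haus7, a subunit of the augmin complex of the spindle, had shares of 70.8% to 85.2% with insecticides and 76.7% in control. Zc3h14, which binds poly(A) tails, had shares of 69.7% to 86.9% with insecticides and 74.2% in control. Sirpa, a receptor of neurons and microglia for CD47, had shares of 53.8% to 80.6% with insecticides and 73.7% in control. Ppip5k2, an inositol pyrophosphate kinase, had shares of 18.6% to 42.0% with insecticides and 46.0% in control, the highest of the 7. The ranges of Sirpa and Ppip5k2, 26.8 and 27.4 points, pass the 20 points used for a difference.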

How the data were processed

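RNA was sequenced from 7 cultures, 1 library per group, and groups were taken from the sample titles. Per the submitters' processing notes, the tools were HISAT2 2.0.1, cutadapt 1.9.1 and bcl2fastq 2.17.1.14, and the build was GRCm38. The program behind the events is not given in the sources used. Per the file headers, the authors deposited an FPKM value for each transcript-structure event, and no event is listed at 0, the lowest value being 1e-06. The values are estimates and not counts, so the depth per library is unknown.

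Kept and skipped forms were paired by gene, strand, start and end, and for the 3666 exact runs also by the flanking exons. The 798 approximate runs took the skipped form with the nearest flanks, and 918 skipped forms served 2 or more runs. Repeated lines, 9635 in all, held the same FPKM and were dropped. Genes were assigned by matching exons and junctions to GENCODE M21, since the deposited gene name differed for 280 runs, and 39 runs kept the deposited name. A run enters the counts at a mean summed FPKM of at least 5, and a difference counts from 20 percentage points. Alternative exons and transcript ends have no kept and skipped form, so they are not in the background over all kinds. No test, error or interval is possible with 1 library per group, and there are no replicates to compare. Pairing and shares were tested on simulated data. Python 3.11.15, pandas 2.3.3 and numpy 2.4.6 were used.

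The runs named are, with 1 run per gene, the 10 with the largest range, the 6 with the smallest range at a median share of 20% to 80%, the 6 at the highest level, the 6 with the most exons, the 3 highest and 3 lowest against control for each insecticide, and runs in fixed gene lists. Predicted models, clone names and pseudogenes were left out of the ranked parts. The members and lists were chosen with earlier results of these data known. A few of the runs so chosen are left out of the text.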

Additional observations from a re-analysis of the deposited data

How the results depend on the processing

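Counts of runs that differ from control by 20 points or more follow the order chlorpyrifos, DDT, rotenone, carbaryl, deltamethrin and imidacloprid. Without a minimum on the summed FPKM they were 847, 810, 797, 820, 832 and 829, or 22.2% to 23.6% of the runs compared. With a minimum of 20 FPKM they were 38, 43, 33, 32, 40 and 31, or 6.26% to 8.70%. At a difference of 10 points they were 397, 373, 374, 360, 369 and 369, or 20.4% to 22.5%. At 30 points they were 117, 128, 104, 104, 122 and 106, or 5.88% to 7.25%. With 1 run per gene they were 117, 119, 107, 113, 116 and 111, or 9.59% to 10.7%. Against the median of the 6 other libraries in place of control, they were 156, 145, 120, 118, 149 and 130, or 6.65% to 8.81%. For runs with a sum within 1.5 times of control, an alternative chosen after seeing the data, they were 100, 103, 92, 90, 101 and 92. With 1 FPKM added to each form they ranged from 146 to 182 (8.25% to 10.3%), and with exact runs only from 160 to 184 (10.7% to 12.3%). With runs of the same values counted once, also chosen after seeing the data, they ranged from 182 to 205 (10.5% to 11.9%). None of these settings has a share over all kinds beside it. Repeated lines held the same values, so summing those that differ could change nothing. Adding 1 FPKM to each form gave mean shares of 73.5%, 73.6%, 74.2%, 73.7%, 73.8% and 73.0% with the insecticides and 73.0% in control. Pairs with both forms listed in all 7 libraries numbered 593 of 4464. All 36 named differences from control kept their direction and stayed at 20 points or more with 1 FPKM added to each form, but 14 of them shrank by over 1.5 times, and their sizes were 39.3 to 94.1 points, against 65.0 to 100 points as reported. No paired analysis was possible because each group has 1 library. The depth behind an FPKM is unknown.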
